A study of Homo sapiens with 17 samples.

Results

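Transcripts of 6 genes of the chemokine system were followed in 17 RNA sequencing libraries of endothelial and blood cells made from H1, an established line of human embryonic stem cells. The genes were the receptors CXCR4, ACKR3 and GPR182 and the ligands CXCL12, CXCL8 and CCL2. They were matched by symbol to the Ensembl identifiers of the deposited tables and all 6 were found among the 58302 identifiers of 13 count tables and the 28285 identifiers of 4 TPM tables. TPM is a level scaled by gene length and to a fixed library sum. The 6 were proposed with the results of these libraries known, so that their values are given as descriptions with no p-value.

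Every library came from H1 cells that had been turned into endothelial cells and selected for a reporter of GATA2, a transcription factor of the endothelium that gives rise to blood and of blood stem cells. The endothelial cells were derived without or with vitamin C, and the labels do not say whether vitamin C was present after re-plating. In 4 libraries the selected cells were read directly, with 2 libraries without and 2 with vitamin C by the sample titles. A course of 10 libraries followed re-plated cells at 0, 24, 36, 48 and 60 h, with 1 library per time and condition. Its 0 h libraries are labelled endothelial cells and its later ones a mixture of endothelial and haematopoietic cells. The last 3 libraries came from cells derived with vitamin C: adherent mixed cells at 60 h, suspended haematopoietic cells at 60 h and suspended haematopoietic cells at 96 h. All libraries share 1 stem cell line and the GATA2 selection, and separate cultures are not named for any group, so that spread within it may be technical.

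Chemokines are small secreted proteins that guide cells along gradients by binding receptors that span the cell membrane. CXCL12 binds CXCR4, which signals through Gi proteins and holds blood stem cells in the marrow, and ACKR3, an atypical receptor that takes up and degrades CXCL12 without classical G protein signalling. GPR182 is an endothelial receptor found on sinusoidal and lymphatic vessels, now also named ACKR5, which binds several chemokines and acts as a scavenger. CXCL8 draws neutrophils and CCL2 draws monocytes, and endothelial cells make both under inflammatory signals that act through NF-kB.

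The count tables held 6214675 to 11058345 reads. At that depth 3 counts, the limit taken here for a count of 0, stood for 0.271 to 0.483 CPM (counts scaled to the library total). Mitochondrial genes took 4.15% to 6.08% of the course's counts, 7.44% in the suspended cells at 60 h and 9.66% at 96 h. The 12 endothelial markers summed to 7766 to 10834 CPM over the course, 10937 in adherent cells, 2297 in suspended cells at 60 h and 1092 at 96 h, where ROBO4 was at 0. The 12 haematopoietic markers summed to 709 to 1136 CPM over the course without vitamin C and to 1507 to 1911 with it, and PTPRC, the pan-leukocyte marker CD45, was at 0 in 7 of the 10 course libraries. The label of haematopoietic cells at 24 to 60 h without vitamin C therefore stands without PTPRC. Intervals given for single libraries are exact Poisson or binomial intervals at 95% and reflect counting error alone, because PCR copies were not marked and reads need not stand for separate molecules.

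RefSeq promoter windows (GRCh38.p14, 250 bases before to 50 after a start) were given for 4 of the 6 members, and stretches of 3 of them are shown because their genes stood highest with vitamin C, highest at late times and near 0 throughout. Each stretch ends before the gene's start in GENCODE 29. Capitals mark letters found by a search of both strands: AGATAA or TGATAA for GATA factors, ACGTG or GCGTG for hypoxia-inducible factors, GGAATTTCC or GGGACTTTC for NF-kB, CCGGAA for ETS factors and TGTGGT for RUNX factors.
GPR182, chr12:56994242-56994445, plus strand: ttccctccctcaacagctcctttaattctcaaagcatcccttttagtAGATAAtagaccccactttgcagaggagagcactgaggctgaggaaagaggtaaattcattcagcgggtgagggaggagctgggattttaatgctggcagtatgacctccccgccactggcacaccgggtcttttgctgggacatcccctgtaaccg
CXCR4, chr2:136118166-136118399, minus strand: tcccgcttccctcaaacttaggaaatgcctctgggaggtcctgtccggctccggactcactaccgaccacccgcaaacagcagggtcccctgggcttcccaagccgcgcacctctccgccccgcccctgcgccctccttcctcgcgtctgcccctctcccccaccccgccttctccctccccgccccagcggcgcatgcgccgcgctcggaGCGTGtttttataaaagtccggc
CXCL8, chr4:73740448-73740505, plus strand: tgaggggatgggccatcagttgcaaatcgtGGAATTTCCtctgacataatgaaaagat
The GPR182 stretch held the GATA letters at -203 from the RefSeq start, as did 16.3% of 35116 promoter windows at any position. The CXCR4 stretch held the hypoxia letters at -39, which 48.4% of all windows held, so that this match is close to what any promoter shows. The CXCL8 stretch held the NF-kB letters at -91, which 0.849% of all windows held under either NF-kB spelling. The GATA letters also lay in the CXCL8 window, at -163, ahead of the stretch shown. The ETS letters (17.2% of all windows) and the RUNX letters (13.1%) were not in the members' windows. A match is a description of letters and not a bound site, and no binding was measured here.

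CXCR4 (ENSG00000121966, chr2:136114349-136118165, minus strand, GENCODE 29) was, per kilobase of exonic sequence, the member with the highest level in each of the 10 course libraries. Without vitamin C it stood at 8.66, 75.5, 162, 191 and 244 CPM at 0, 24, 36, 48 and 60 h. With vitamin C it stood at 27.6, 58.2, 130, 194 and 250 CPM. Its level was thus higher at each later time in both conditions, and the 60 h level was 28.2 times that at 0 h without vitamin C (interval 22.1 to 36.5) and 9.07 times with it (7.92 to 10.4). The straight-line change over 60 h shared by both conditions was 3.86 ± 0.48 on the log2 scale (SE, 10 libraries).

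The conditions differed in CXCR4 mainly at the start. The ratio with over without vitamin C was 3.18 at 0 h (2.42 to 4.24), 0.771 at 24 h (0.674 to 0.881) and 0.801 at 36 h (0.740 to 0.868). At 48 h it was 1.02 (0.939 to 1.10) and at 60 h 1.02 (0.958 to 1.09), so that these 2 pairs differed by less than counting error. Over all 5 times the log2 difference was 0.08 ± 0.19 (SE), and it was -0.15 ± 0.08 without the 0 h pair. The difference in slope between conditions was -1.25 ± 0.91 (SE) on the log2 scale over 60 h, and 0.74 ± 0.65 without the 0 h pair. It was 0.76 ± 0.61 without the 0 h library without vitamin C and -1.22 ± 1.23 without the one with it. Its sign thus rests on the 0 h library without vitamin C. In the order of CXCR4 levels the only neighbours with overlapping intervals were the 60 h pair, the 48 h pair, and the suspended cells at 60 h with the 0 h library with vitamin C.

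**Figure D1:**
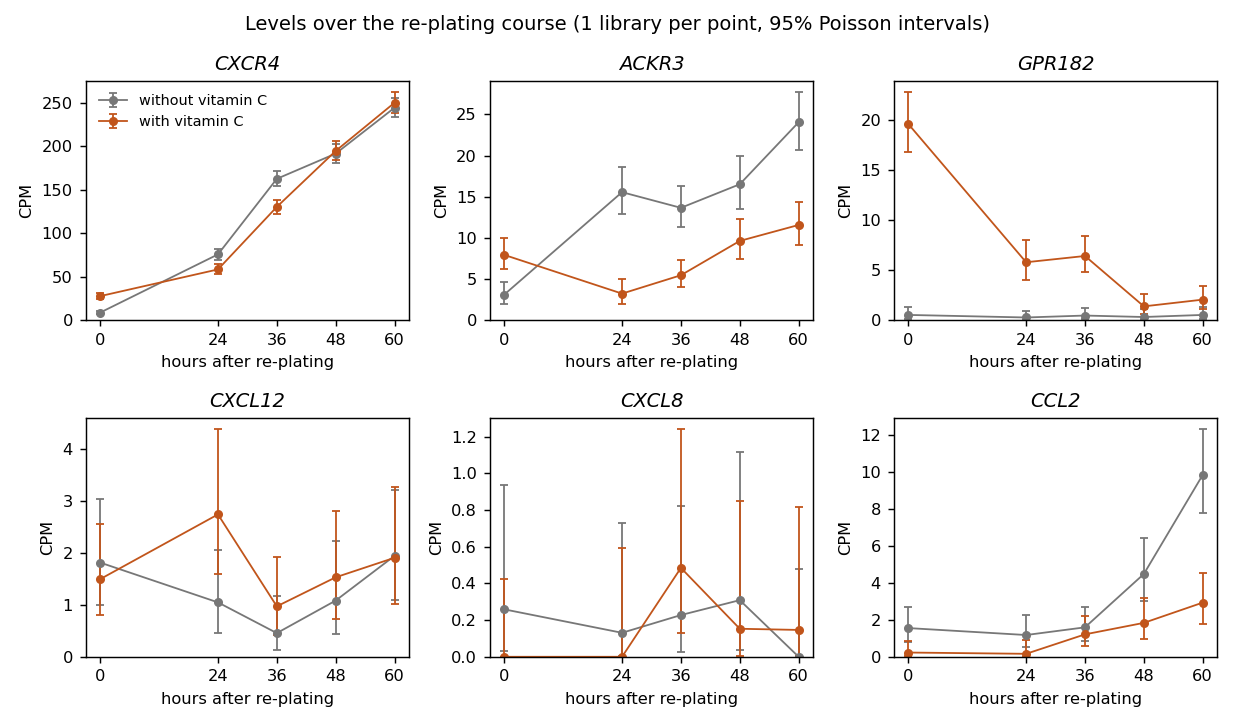
Level of each member in CPM against hours after re-plating, without (grey) and with vitamin C (orange), 1 library per point, bars showing 95% Poisson intervals. CXCR4 reached 244 and 250 CPM at 60 h in the 2 conditions, GPR182 stood at 19.6 CPM at 0 h with vitamin C and at or below 0.517 CPM in every library without it, and CXCL8 never passed 4 counts.

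From 24 h of the course on, classical receptors other than CXCR5 had few counts beside CXCR4. Over the 17 further classical chemokine receptors of the list, CXCR5 had the most counts, 20.9 to 35.3 CPM over the course, but 88.6% of its exonic bases are shared with BCL9L on the other strand and it was listed at 0 TPM in all 4 sorted libraries. With CXCR5 left out, CXCR4 held 45.6% of the counts of classical receptors at 0 h without vitamin C and 69.6% with it. From 24 h on it held 89.6% to 97.5% of them over the course. At 0 h without vitamin C, CCR10 had 45 counts and CX3CR1 32, beside 67 for CXCR4. Of the exonic bases of CCR10, 31.3% are shared with genes on the other strand. No exonic base of any of the 6 members is shared with another gene in GENCODE 29.

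ACKR3 (ENSG00000144476, chr2:236567787-236582358, plus strand), the scavenging receptor of CXCL12, stood at 3.10, 15.5, 13.6, 16.5 and 24.1 CPM without vitamin C at the 5 times. With vitamin C it stood at 7.92, 3.22, 5.45, 9.62 and 11.6 CPM. Its level with vitamin C was higher at 0 h and lower at each of the 4 later times, an arrangement that 4.45% of all 14773 genes tested shared. The ratio with over without vitamin C was 2.55 at 0 h (1.58 to 4.25), 0.207 at 24 h (0.122 to 0.334), 0.400 at 36 h (0.277 to 0.567), 0.583 at 48 h (0.420 to 0.803) and 0.481 at 60 h (0.365 to 0.629). Each of these 5 intervals lay on 1 side of 1.

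Over the 5 times the log2 difference in ACKR3 was -0.87 ± 0.35 (SE), and without the 0 h pair it was -1.29 ± 0.21. With the filter on low counts the gene was not called over all 10 libraries. It was called with no filter (-0.86 ± 0.18) and without the 0 h pair or either 0 h library. As ACKR3 was proposed with this contrast known, nothing is read from these calls. From 0 to 60 h its level was 7.75 times as high without vitamin C (5.05 to 12.4) and 1.46 times as high with it (1.04 to 2.05). Per kilobase of exonic sequence, which allows levels of different genes to be compared, CXCR4 stood at 3.89 and ACKR3 at 1.37 CPM per kb at 0 h without vitamin C. At 60 h they stood at 110 and 10.7 CPM per kb without vitamin C and at 112 and 5.12 with it.

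GPR182 (ENSG00000166856, chr12:56994446-56998441, plus strand) was detected over the course mainly in cells derived with vitamin C. It had 171, 36, 53, 9 and 14 counts with vitamin C at 0, 24, 36, 48 and 60 h, or 19.6, 5.79, 6.42, 1.37 and 2.05 CPM. Without vitamin C it had 4, 2, 4, 2 and 4 counts, or 0.517, 0.261, 0.455, 0.309 and 0.517 CPM. The libraries without vitamin C were thus at or near the limit of detection at every time, and the level with vitamin C was highest at 0 h.

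The ratio of GPR182 with over without vitamin C was 38.0 at 0 h (14.6 to 141), 22.2 at 24 h (5.71 to 190), 14.1 at 36 h (5.20 to 53.7), 4.45 at 48 h (0.922 to 42.4) and 3.96 at 60 h (1.24 to 16.5). The 48 h interval includes 1. With vitamin C its level at 60 h was 9.58-fold lower than at 0 h (5.56 to 17.9). Its log2 difference over the 5 times was 3.81 ± 0.45 (SE), and it passed the filter on low counts through the libraries with vitamin C. Without the 0 h pair it did not pass, so that no difference was fitted. The difference was 3.23 ± 0.45 without the 0 h library without vitamin C and 3.20 ± 0.50 without the 0 h library with it. GPR182 was higher with vitamin C at all 5 times, as were 9.65% of all genes tested. At 0 h it stood at 5.69 CPM per kb with vitamin C, between ACKR3 at 3.51 and CXCR4 at 12.4, whereas at 60 h it stood at 0.594 against 112 for CXCR4.

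The haematopoietic marker sum was also higher with vitamin C at all 5 times, 1719 against 845 CPM at 0 h and 1588 against 709 CPM at 60 h. The endothelial marker sum was 8652 against 7766 CPM at 0 h and 9169 against 9993 CPM at 60 h. The mesenchymal and stromal marker sum, which was 2239 and 2073 CPM at 0 h, stood at 519 to 650 CPM with vitamin C from 24 h on and at 922 to 1697 CPM without it. Of these stromal markers MYH11 was at 0 in all 10 course libraries. The part of these cell types in the members' values was not tested, and in bulk libraries fewer cells of a type and less RNA per cell cannot be told apart.

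**Figure D2:**
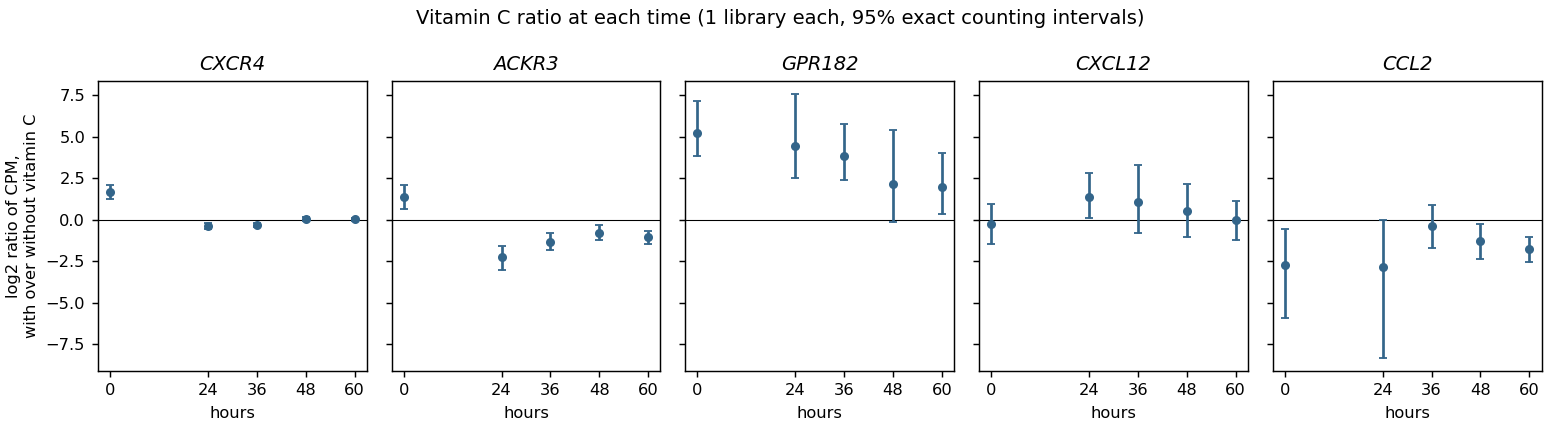
Log2 ratio of CPM with over without vitamin C at each time for the 5 members that passed the filter, 1 library per condition, bars showing 95% exact counting intervals. GPR182 lay above 0 throughout with its largest ratio, 38.0, at 0 h, ACKR3 passed from 2.55 at 0 h to 0.207 at 24 h, and CXCR4 stood at 1.02 at 48 and 60 h.

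CXCL12 (ENSG00000107562, chr10:44370165-44386493, minus strand), the ligand shared by CXCR4 and ACKR3, was low in every library. It stood at 1.81, 1.05, 0.455, 1.08 and 1.94 CPM without vitamin C and at 1.49, 2.74, 0.969, 1.53 and 1.90 CPM with it, which is 4 to 17 counts a library. The conditions overlapped, with a log2 difference of 0.45 ± 0.37 (SE), and the change over 60 h was -0.05 ± 0.59. Of the 5 ratios, the one at 24 h, 2.62 (1.07 to 7.01), had an interval that excluded 1. At 60 h with vitamin C, CXCL12 stood at 0.313 CPM per kb against 112 for its receptor CXCR4.

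CXCL8 (ENSG00000169429, chr4:73740506-73743716, plus strand), the gene whose upstream stretch held the NF-kB letters, had 0 to 4 counts in each of the 13 count libraries. It did not pass the filter on low counts, and no difference between libraries was detectable at this depth. It had 0 counts at 60 h without vitamin C and at 0 and 24 h with it, which allows up to 0.344 to 0.483 CPM.

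CCL2 (ENSG00000108691, chr17:34255218-34257203, plus strand) stood at 1.55, 1.18, 1.59, 4.48 and 9.83 CPM without vitamin C at the 5 times. With vitamin C it stood at 0.230, 0.161, 1.21, 1.83 and 2.93 CPM. It was lower with vitamin C at all 5 times, as were 8.76% of all genes tested, and highest at 60 h in both conditions. The ratio with over without vitamin C was 0.148 at 0 h (0.0161 to 0.665) and 0.298 at 60 h (0.172 to 0.493), and at 36 h it was 0.761 with an interval that included 1 (0.302 to 1.84). Its log2 difference was -1.53 ± 0.37 (SE) and its change over 60 h was 3.25 ± 0.63. In the libraries at 0 and 24 h with vitamin C it rests on 2 and 1 counts.

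Of the 5 members that passed the filter, edgeR's quasi-likelihood test called 2 for vitamin C over the course, GPR182 higher and CCL2 lower, where it called 6.25% of all genes tested (2.52% higher and 3.73% lower). For hours it called 3, CXCR4 and CCL2 higher and GPR182 lower by 2.55 ± 0.66 on the log2 scale over 60 h, where it called 11.9% of all genes (5.65% higher and 6.21% lower). Since the members were proposed with these contrasts known, nothing is read from these counts. Without vitamin C, GPR182 had 4 counts at 0 h and 4 at 60 h, a ratio of 1.00 (0.186 to 5.37). The shared change over hours thus does not describe that condition. The call of CCL2 for vitamin C was lost without any 1 of the 24, 48 or 60 h libraries (log2 differences of -1.42 to -1.62). With no term for time neither GPR182 (4.03 ± 0.73) nor CCL2 (-1.56 ± 0.77) was called for vitamin C. The call of GPR182 for hours was lost without the 0 h library with vitamin C (-1.40), without either 48 h library (-2.57 and -2.14) and without the 60 h library with vitamin C (-2.37). Without the 0 h pair GPR182 did not pass the filter and was not tested.

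For the difference in slope edgeR called 0 of 14773 genes, with 415 at an unadjusted p under 0.05, and DESeq2 called 11. The members' differences in slope, with minus without vitamin C on the log2 scale over 60 h, were -3.45 ± 1.20 (SE) for GPR182, -1.75 ± 0.99 for ACKR3 and 1.21 ± 1.36 for CCL2. GPR182 did not pass the filter on low counts without the 0 h pair, so its difference in slope was not fitted there. It stood at -4.60 ± 2.04 without the 0 h library without vitamin C and at -3.31 ± 1.71 without the 0 h library with it. The sign for ACKR3 rests on the 0 h library with vitamin C and that for CCL2 on the one without it. ACKR3 stood at 1.91 ± 0.82 without the 0 h pair and at 0.64 ± 1.11 without the 0 h library with vitamin C. Without the 0 h library without vitamin C it stood at -0.39 ± 1.04. CCL2 stood at -0.77 ± 1.91 without the pair and at -1.33 ± 1.61 without the 0 h library without vitamin C. Without the 0 h library with vitamin C it stood at 1.98 ± 2.01.

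In the sorted cells that were read directly, 4 of the 6 members separated by replicate number in one direction or the other. So did 55.1% of all 14421 genes tested, and nothing is read from this count. CXCR4 stood at 99.1 and 11.4 TPM without vitamin C in replicates 1 and 2 and at 821 and 9.19 TPM with it. ACKR3 stood at 35.3 and 27.5 TPM without and at 67.4 and 10.2 TPM with vitamin C. Both receptors were thus higher in both libraries of replicate 1 than in both of replicate 2. The groups by vitamin C overlapped for both genes.

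GPR182 stood at 2.44 and 1.61 TPM without vitamin C and at 1.20 and 8.07 TPM with it, so that its highest library was replicate 2 with vitamin C and its lowest replicate 1 with vitamin C. CXCL12 stood at 3.19 and 0 TPM without and at 5.77 and 0.270 TPM with vitamin C. CXCL8 stood at 0.400 and 2.55 TPM without and at 0 and 1.31 TPM with vitamin C. CXCL12 was higher in replicate 1 and CXCL8 in replicate 2, each in both libraries of the number. CCL2 stood at 11.9 and 11.0 TPM without vitamin C and at 2.28 and 10.5 TPM with it, and by the titles was the single member whose vitamin C groups did not overlap, as was the case for 28.4% of all genes tested. The size of that difference rests on replicate 1 with vitamin C: without it the log2 difference was -0.11. By the descriptions the CCL2 groups overlapped.

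By the titles, mean CXCR4 was 415 ± 574 TPM with vitamin C (SD, n = 2) and 55.2 ± 62.0 without, mean ACKR3 38.8 ± 40.4 against 31.4 ± 5.56 and mean CCL2 6.41 ± 5.83 against 11.4 ± 0.601. On the log2(TPM + 1) scale the differences were 1.38 ± 2.11 for CXCR4 (SE), -0.21 ± 0.83 for ACKR3, 0.58 ± 0.74 for GPR182, 0.52 ± 1.04 for CXCL12, -0.55 ± 0.69 for CXCL8 and -1.02 ± 0.65 for CCL2. None of the 6 was called, and limma called 0.0% of all genes, with 313 at an unadjusted p under 0.05. For 2 of the 4 libraries the description names the other vitamin C condition than the title, because the descriptions give 1 condition to both libraries of a replicate number. Grouped by the descriptions, the CXCR4 difference became -4.68 ± 0.81 and limma called 156 genes, CXCR4 among them. CCL2 became 0.86 ± 0.59, CXCL12 -2.24 ± 0.41 and CXCL8 1.28 ± 0.42, so that these 4 members changed sign with the labels. By the titles, CXCR4 stood at -1.79 without replicate 1 with vitamin C, at -0.13 without replicate 2 without it and at 4.55 without replicate 2 with it, so that single libraries also set its sign. ACKR3 ranged from -1.52 to 1.09 and GPR182 from -0.45 to 1.60 in the same way, each with replicate 1 or replicate 2 with vitamin C left out.

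The endothelial marker sum in TPM was 4331 and 4075 without and 5233 and 4241 with vitamin C in replicates 1 and 2, and the haematopoietic sum was 953, 961, 1192 and 1130 in the same order. PTPRC was at 0 in 3 of the 4 libraries. The mesenchymal and stromal sum was 2042 and 1459 without and 1322 and 1038 with vitamin C, with all 12 markers above 0. The part of these cell types was not tested here either.

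**Figure D3:**
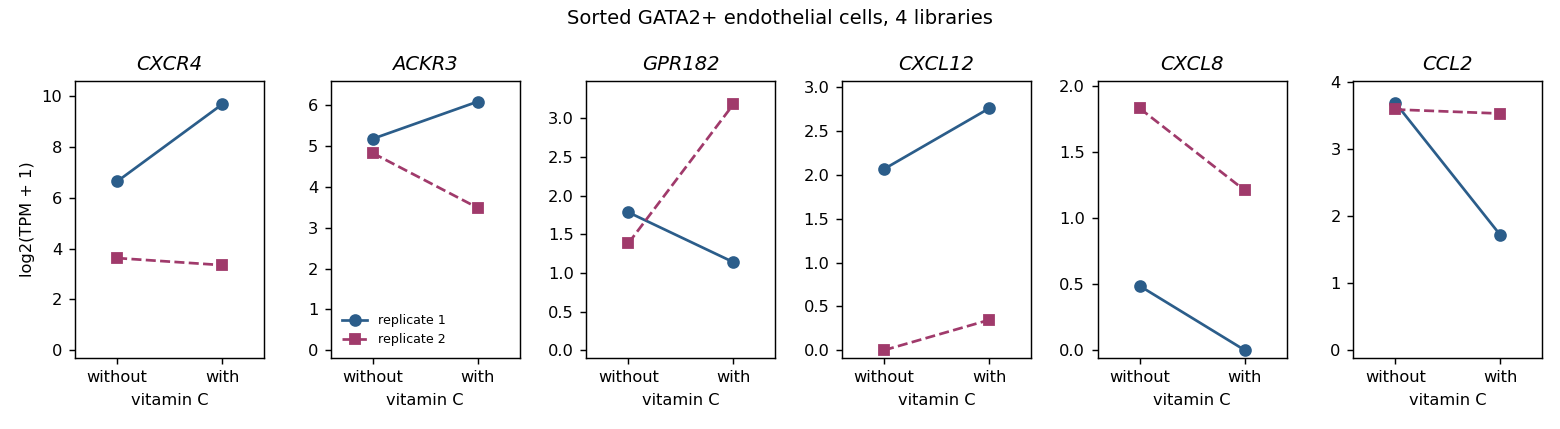
Log2(TPM + 1) of each member in the 4 sorted libraries, without and with vitamin C by the titles, lines joining libraries of the same replicate number (circles 1, squares 2). CXCR4 separates by replicate number, at 99.1 and 821 TPM in replicate 1 and 11.4 and 9.19 in replicate 2. CCL2 is the single member whose vitamin C groups by the titles do not overlap. Of all genes tested, 55.1% separated by replicate number and 28.4% by vitamin C group.

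At 60 h CXCR4, ACKR3, GPR182 and CCL2 stood lower in the suspended cells than in the adherent ones, beyond counting error, and ACKR3 was not detected in suspension. CXCR4 stood at 304 CPM in adherent cells, 30.5 CPM in suspended cells at 60 h and 0.0904 CPM, 1 count, in suspended cells at 96 h. Its level in suspended cells was 9.99-fold lower than in adherent cells (8.68 to 11.5), and 337-fold lower again at 96 h (59.8 to 13372). ACKR3 stood at 13.2 CPM, 107 counts, in adherent cells and at 0 counts in suspended cells at both times, which is at least 30.6-fold lower at 60 h and at least 48.6-fold lower at 96 h against a limit of 3 counts per library. The 95% intervals of these ratios, which also hold the counting error of the adherent library, begin at 24.4-fold and 38.8-fold. There is 1 library per group and no test.

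GPR182 had 11 counts in adherent cells, 2 in suspended cells at 60 h and 0 at 96 h, or 1.36, 0.287 and 0 CPM, and was 4.71-fold lower in suspended than adherent cells at 60 h (1.03 to 43.8). CCL2 stood at 2.59, 0.862 and 0.814 CPM in the same order, and the ratio of suspended to adherent cells at 60 h was 0.333 (0.110 to 0.854). CXCL12 stood at 0.986, 0.575 and 0.181 CPM, 8, 4 and 2 counts, with an interval of the 60 h ratio that included 1 (0.129 to 2.18). CXCL8 had 2, 1 and 4 counts. The adherent library was also set against the mixed library of the same time and condition. The ratio was 1.22 for CXCR4 (1.14 to 1.30), 1.14 for ACKR3 (0.844 to 1.54) and 0.661 for GPR182 (0.272 to 1.57). It was 0.884 for CCL2 (0.456 to 1.72) and 0.518 for CXCL12 (0.186 to 1.35). Of these intervals that of CXCR4 excluded 1, and some genes outside the members lay farther apart, as given below.

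Of the members that reached 5 CPM in 1 library of the pair, both CXCR4 and ACKR3 were at least 2-fold lower in suspended cells at 60 h, where 14.6% of 12705 genes were (12.3% were higher by as much, 26.9% in either direction). CXCR4 was the only such member at 96 h against 60 h, where 10.5% of 12405 genes were at least 2-fold lower (5.54% were higher by as much, 16.1% in either direction). ACKR3 passed the limit of 5 CPM through the adherent library alone, and CXCR4 at 96 h against 60 h through the 60 h library alone. In these pairs each could only be counted as lower. Nothing is read from these counts either. The endothelial marker sum was 10937 CPM in adherent cells and 2297 in suspended cells at 60 h, while the haematopoietic sum was 1369 CPM in adherent cells, 2851 in suspended cells at 60 h and 3945 at 96 h. The erythroid and megakaryocyte sum was 25.0, 894 and 7840 CPM in the same order, with all 12 markers above 0. The myeloid sum was 233, 158 and 337 CPM, with CD14 and S100A8 at 0 in all 3. The part of these cell types in the members' levels was not tested.

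**Figure D4:**
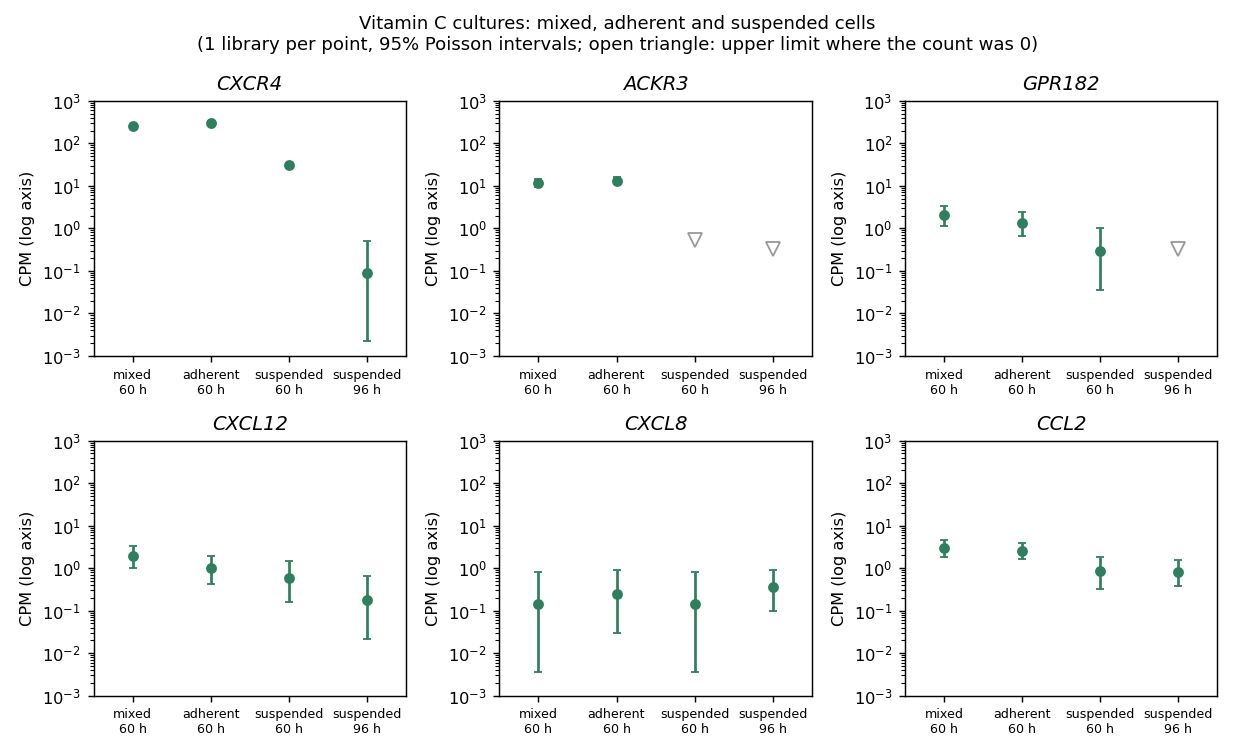
Level of each member on a log axis of CPM in the mixed, adherent and suspended cells with vitamin C, 1 library per point with 95% Poisson intervals, open triangles giving the upper limit where the count was 0. CXCR4 passes from 304 CPM in adherent cells to 30.5 and 0.0904 CPM in suspended cells, and ACKR3 and GPR182 reach 0 counts.

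The other genes of the system were taken from 6 lists of 115 genes, of which 53 passed the filter over the course. The lists were written with earlier results of these data known, so that the p-values of their genes are descriptions. For vitamin C 4 rose and 3 fell, 7 of 53 against 6.25% of all genes, and the median log2 difference was 0.03 against 0.00 over all genes. Among chemokines, 1 of 7 tested changed: CX3CL1, a membrane-bound chemokine of activated endothelium, fell with vitamin C by 1.14 ± 0.22 on the log2 scale (SE, edgeR adjusted p = 0.00814), from 21.5 CPM without to 9.22 with vitamin C at 60 h. The 6 CXC chemokines tested, whose median was -0.29, gave no call, nor did the 2 classical and the 3 atypical receptors tested.

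Among 29 tested genes of CXCR4 signalling and desensitisation, 3 rose with vitamin C and 1 fell. VAV1, an exchange factor for Rac in blood cells, was higher by 1.11 ± 0.13 (SE, edgeR adjusted p = 0.000462), and WAS, the actin regulator of blood cells, by 1.26 ± 0.22 (edgeR adjusted p = 0.00566). ARRB2, the arrestin that uncouples CXCR4 from its G protein, was higher by 0.51 ± 0.11 (edgeR adjusted p = 0.0163). DPP4, the surface peptidase that inactivates CXCL12, fell by 1.28 ± 0.33 (edgeR adjusted p = 0.0414) at levels of 0.230 to 8.62 CPM. WAS is also 1 of the haematopoietic markers, whose sum was higher with vitamin C.

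Among 12 tested genes of the NF-kB list, SELE, the endothelial selectin that catches leukocytes, rose by 1.46 ± 0.29 (SE, edgeR adjusted p = 0.0101). From 24 h on its level was 104 to 162 CPM with vitamin C and 32.1 to 40.6 CPM without it, but at 0 h it was 33.4 against 46.5 CPM. In the sorted cells, grouped by the titles, SELE stood at 6.70 and 13.1 TPM with vitamin C in replicates 1 and 2 against 42.7 and 66.1 without it, a log2 difference of -2.38 ± 0.43 that limma did not call (adjusted p = 1.00). ICAM1, a ligand of leukocyte integrins, fell by 0.57 ± 0.12 (edgeR adjusted p = 0.0133). Of its exonic bases 23.6% are shared with genes on the other strand. SELE and ICAM1, which are both NF-kB targets, thus moved in opposite directions. The calls of WAS and VAV1 held without each library in turn. That of CX3CL1 was lost without either 48 h library (edgeR adjusted p = 0.0613 and 0.0537), and that of DPP4 without any 1 of the 24, 48 or 60 h libraries (edgeR adjusted p from 0.125 to 0.167) and under DESeq2 (adjusted p = 0.0692). Those of ARRB2 and SELE were lost without any 1 of the 36 or 48 h libraries (edgeR adjusted p from 0.0690 to 0.0890 and from 0.0596 to 0.0769). That of ICAM1 was lost without either 36 h library or the 60 h library without vitamin C (edgeR adjusted p from 0.0509 to 0.0697).

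With hours, 6 of the 53 list genes rose and 3 fell, 9 of 53 against 11.9% of all genes, with a median of -0.02 in both the lists and all genes. RGS18, a brake on G protein signalling in blood cells and platelets, rose by 3.10 ± 0.41 on the log2 scale over 60 h (SE, edgeR adjusted p = 0.00120). PIK3CG, the PI3-kinase that chemokine receptors activate in blood cells, rose by 2.16 ± 0.33 (edgeR adjusted p = 0.00262), WAS by 1.85 ± 0.33 (edgeR adjusted p = 0.00563) and CX3CL1 by 1.76 ± 0.34 (edgeR adjusted p = 0.00807). IRAK2, a kinase of interleukin-1 signalling, rose by 1.60 ± 0.38 (edgeR adjusted p = 0.0217). CD74, the invariant chain and receptor of the cytokine MIF, fell by 3.03 ± 0.66 (edgeR adjusted p = 0.0148), from 8.14 and 8.38 CPM at 0 h to 1.16 and 1.90 CPM at 60 h. MIF itself had 0 or 1 counts in each count library but 540 to 937 TPM in the sorted cells. Other genes share 61.95% of its exonic bases, and the cause of this difference was not tested. The calls of RGS18, PIK3CG and WAS held without each library in turn. Without the 0 h library of the condition without vitamin C, CX3CL1, CD74 and IRAK2 were no longer called (edgeR adjusted p = 0.0534, 0.132 and 0.0811). Without the 0 h library with vitamin C, CD74 and IRAK2 were not called (edgeR adjusted p = 0.0798 and 0.0504), nor was IRAK2 without the 60 h library without vitamin C (edgeR adjusted p = 0.0770).

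**Figure D5:**
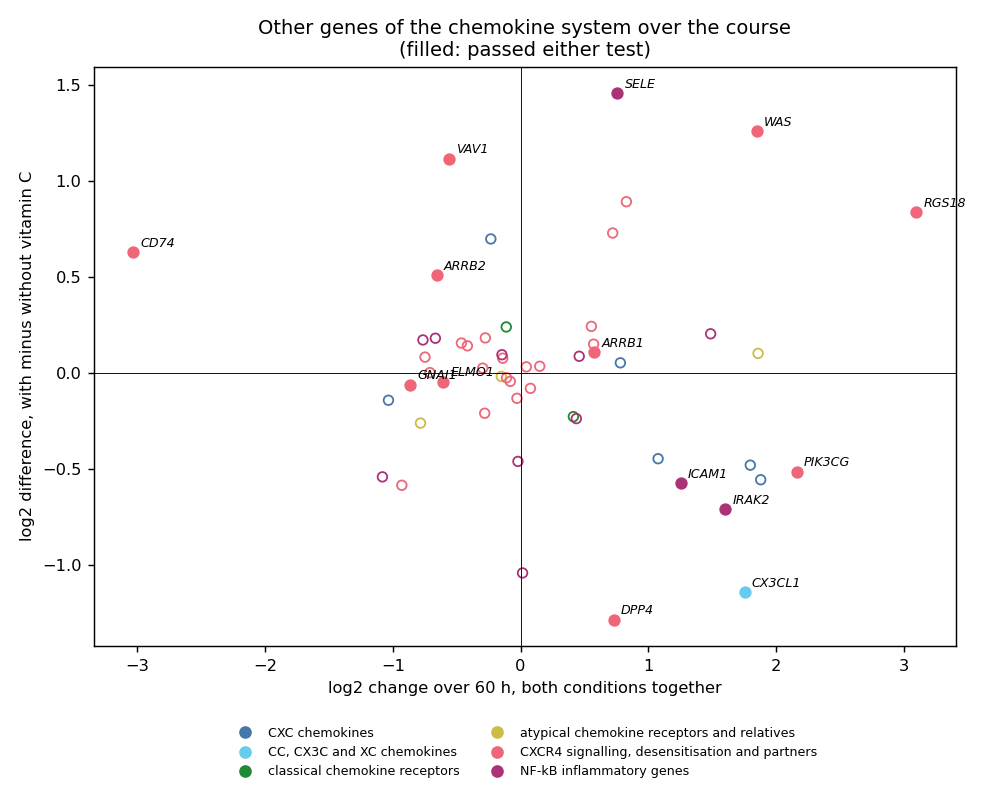
Each point is 1 of the 53 tested genes of the 6 lists, placed by its log2 change over 60 h and its log2 difference with minus without vitamin C, coloured by list and filled where it passed either edgeR test. VAV1, WAS and SELE lie above 1 on the vitamin C axis and CX3CL1 and DPP4 below -1, and RGS18 and CD74 lie farthest out on the hours axis, at 3.10 and -3.03.

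Between adherent and suspended cells more of the signalling genes stood higher than lower, unlike CXCR4 itself. Of 28 with at least 5 CPM, 11 were at least 2-fold higher and 3 at least 2-fold lower in suspended cells at 60 h, where 12.3% and 14.6% of all genes were, with a median log2 ratio of 0.48 against 0.14 over all genes. WAS stood at 64.3 CPM in suspended and 5.91 in adherent cells, PTK2B, a focal adhesion kinase of blood cells, at 69.7 and 7.88, and RGS18 at 56.2 and 6.41. The haematopoietic marker sum, in which WAS is counted, was also higher in suspended cells. Lower in suspended cells were GRK5, a kinase that desensitises receptors, at 15.1 against 76.0 CPM, the G protein subunit GNG2 at 10.9 against 50.6, and RGS16, another brake on G proteins, at 18.3 against 49.8. Of the other G protein subunits listed, GNAI1 stood at 69.0 against 136 CPM, GNAI2 at 393 against 620 and GNAI3 at 115 against 125. GNB1 stood at 486 against 585 CPM and GNB2 at 215 against 298, while GNG5 was higher at 114 against 104. Of 5 CXC chemokines 3 were higher and 2 lower, but all except CXCL2 passed the limit of 5 CPM through 1 library alone. Those could only be counted as higher in that library. PF4, a chemokine of platelet granules that is also 1 of the megakaryocyte markers, stood at 21.8 CPM in suspended against 2.59 in adherent cells, CXCL3 at 13.9 against 3.33 and CXCL11 at 7.76 against 2.46. CXCL2 stood at 8.48 against 17.7 CPM, but at 5.27 CPM in the mixed library at 60 h with vitamin C, below both. CXCL1, a neutrophil attractant, stood at 1.72 CPM in suspended against 12.7 in adherent cells, and CX3CL1 at 0.862 against 8.99. In the mixed library these 2 stood at 3.37 and 9.22 CPM. Of the other receptors, PITPNM3, which has been named as a receptor of CCL18, stood at 1.87 against 16.5 CPM, while ACKR2, a scavenger of inflammatory CC chemokines, stood at 5.46 against 0.370 CPM, with 25.2% of its exonic bases shared with other genes. Of the NF-kB list 4 of 11 were at least 2-fold lower and none higher, beside the same 14.6% and 12.3% of all genes, with a median of -0.59 against 0.14. The values were lower for SELE at 20.8 against 156 CPM, RELB at 2.59 against 10.8 and PTGS2 at 5.17 against 15.5. The mixed library held SELE at 162, RELB at 9.07 and PTGS2 at 6.59 CPM. CX3CL1, PITPNM3, ACKR2 and RELB also passed the limit of 5 CPM through 1 library of the pair alone, which fixed their direction.

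From 60 to 96 h in suspension, all 5 CXC chemokines with at least 5 CPM stood at least 2-fold higher, as did 5.54% of all genes, with a median log2 ratio of 2.09 against -0.19 over all genes. PF4 stood at 21.8 CPM at 60 h and 495 at 96 h. PPBP, the precursor of another platelet chemokine, had 5 counts at 60 h and 1890 at 96 h, which is 0.719 and 171 CPM. It passed the limit of 5 CPM through the 96 h library alone, so that it could only be counted as higher. CXCL2, a neutrophil attractant, stood at 8.48 and 37.8 CPM. Of 28 signalling genes 2 stood at least 2-fold higher, CD74 at 5.32 and 11.7 CPM and RGS18 at 56.2 and 115, and 4 lower, beside 5.54% and 10.5% of all genes. Of the lower ones PIK3CG stood at 24.3 and 7.96 CPM, GNG2 at 10.9 and 3.71, and GRK5 at 15.1 and 5.79. Over the same interval SELE had 20.8 CPM and then 1 count, while IRAK2 stood at 3.16 and 31.5 CPM and NFKBIA, the inhibitor of NF-kB, at 30.8 and 84.0 CPM. IRAK2 also passed the limit of 5 CPM through the 96 h library alone, and SELE and GNG2 through the 60 h library alone. CXCL8 stayed at 1 and 4 counts, and CXCL12 at 4 and 2.

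Genes were ranked by how closely their log2 levels followed each member over the 10 course libraries, among 11071 genes. These correlations describe libraries that share their times and condition, and no p is given. CXCR4 was followed most closely by GALNT18 (Pearson r = 0.995, Spearman rho = 0.988), a glycosyltransferase gene, then RAPGEF5 (r = 0.988) and DUSP3 (r = 0.985). Over all 13 count libraries the values were 0.994, 0.976 and 0.881. GALNT18 stood at 7.76 and 147 CPM at 0 and 60 h without vitamin C and at 17.3 and 124 CPM with it.

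GPR182 was followed most closely by RAMP2 (r = 0.933), which encodes an accessory protein of the adrenomedullin receptor, MAP3K4 (r = 0.918) and SOX17 (r = 0.914), an arterial transcription factor. Over 13 libraries these values were 0.623, 0.364 and 0.548. RAMP2 stood at 46.1 CPM without and 127 with vitamin C at 0 h, and at 40.7 and 54.7 CPM at 60 h. SOX17 stood at 105 and 235 CPM at 0 h and at 80.6 and 107 CPM at 60 h.

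ACKR3 was followed by ADIPOR2 (r = 0.936), RAB22A (r = 0.918) and CABLES1 (r = 0.912), but over 13 libraries ADIPOR2 gave -0.26, whereas RAB22A gave 0.959. CCL2 was followed by YBX3 (r = 0.976), EPB41L1 (r = 0.971) and TUBG2 (r = 0.965), and EPB41L1 stood at 16.0 and 59.9 CPM at 0 and 60 h without vitamin C and at 9.64 and 29.3 with it. The closest value was 0.850 for CXCL12 and 0.877 for CXCL8, whose counts are too few for a ranking to say more.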

How the data were processed

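The members and lists were chosen with earlier results of these data known. Total RNA extracted in Trizol went into Illumina TruSeq RNA libraries, per the labels' protocols. HISAT2 2.0.4, SAMtools 1.3.1, HTSeq 0.6.0, DESeq 1.18.1 and GRCh38 are named, without roles, per the submitters' processing notes. The authors deposited raw read counts for 13 libraries and, for the 4 sorted libraries, values read as TPM because they sum to 995020 to 996531 and fall against counts with gene length (log2 slope -0.71 over 9869 genes). The depth behind the deposited TPM values is unknown. Strand and annotation of the counting are not given in the sources used here, so counts of overlapping genes are uncertain.

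Groups came from the titles. The 10 course libraries were fitted in edgeR 4.0.16 (TMM, filterByExpr by condition, quasi-likelihood F test), with time as a factor for vitamin C and as a straight line for hours. Because each time and condition has 1 library, these p-values measure departures among single libraries. TPM was tested with limma 3.58.1 (trend) on log2(TPM + 1), which understates changes of low genes. A gene had to reach 1 TPM in 2 or more libraries. Tests were two-sided, p-values were adjusted over all genes by Benjamini-Hochberg, the threshold was 0.05, and "called" means past it. Single-library ratios used CPM of the library total. Named list genes are the up to 4 called per list and comparison with the smallest p, or for single libraries the up to 3 largest ratios per list and direction at 5 CPM in the higher library and 2-fold. CXCR5, CCR10, CX3CR1 and the other G protein subunits are named besides. Scripts were tested on simulated data. Alternatives were DESeq2 1.42.0 and its size factors, no filter, no term for time, time ranks, no 0 h pair, each library left out, other pseudocounts, the descriptions' groups, a replicate block, TMM scaling and 5 CPM added to ratios.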

Additional observations from a re-analysis of the deposited data

How the results depend on the processing

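Calls for vitamin C over the course numbered 923, of which 7 were list genes, and became 1591 and 11 with no filter, and 28 and 0 with no term for time. Leaving out 1 library gave 485 to 1167 genes and 3 to 10 list genes, with 485 to 601 genes without any 1 of the 24, 36 or 48 h libraries or the 60 h library without vitamin C, and 3 or 4 list genes without a 36 or 48 h library. Calls for hours numbered 1751 and 9, and became 4418 and 19 without the 0 h pair, with 14 list genes by DESeq2. Leaving out 1 library gave 739 to 1858 and 5 to 12, the lowest without the 0 h library without vitamin C. The slope difference gave 0 calls and 11 by DESeq2. The sorted cells gave 0 calls, 0 to 1 without 1 library (1 without replicate 1 with vitamin C) and 156 by the descriptions, with 3 list genes (CXCL1, CXCL2 and NFKBIA). The fit with the replicate number as a block gave 0 calls and 1237 genes at an unadjusted p under 0.05. Deviations of same-numbered libraries correlated at r = 0.565 over 14421 genes, which with 2 pairs is a single value and does not establish pairing. With 5 CPM added, 1224 genes and 9 list genes stood at least 2-fold apart between suspended cells at 96 and 60 h. CXCR4 in sorted cells ranged from -1.79 to 4.55 on the log2 scale without 1 library. The cause of these changes was not tested. Of 296 member values under alternatives, 252 moved by less than their error. Depth limits the course values with under 10 counts: all of CXCL8, GPR182 without vitamin C and at 48 h with it, 4 of CXCL12, and CCL2 at 24 h without and at 0 and 24 h with vitamin C.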
